A study of Mus musculus with 9 samples.

Results

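Messenger RNA levels of 40 lysosomal genes were followed in mouse aortas. The genes were taken by name from the deposited table of 54532 genes, and all 40 were found in it once. They code for 15 parts of the proton pump that acidifies the lysosome, 20 hydrolases and activators other than the cathepsins, and 5 proteins of the lysosomal membrane. All 9 aortas came from Apoe-/- mice, which lack apolipoprotein E and develop atherosclerosis, and the animals were 6 to 8 weeks old when a regimen of 24 weeks began. Of these, 3 aortas came from mice on a high fat diet that also received ammonium iron(III) citrate by intraperitoneal injection (HFD_IO), 3 from mice on the high fat diet alone (HFD), and 3 from mice on chow (CD). The labels name no injection for the HFD and CD groups, and they name the whole aorta as the tissue, so a value is a sum over the cells of vessel wall and plaque. By its title the series concerns iron overload in atherosclerosis.

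The lysosome is the organelle in which cells degrade lipoproteins, matrix fragments, dead cells and their own worn parts. Its proton pump, the V-type ATPase, has a V1 sector in the cytosol that hydrolyses ATP and a V0 sector in the membrane that carries protons inward, and most lysosomal hydrolases work only at the low pH that it sets. Plaque macrophages take up lipoprotein and dead cells and depend on this machinery to break them down. Acid in endosomes and lysosomes also releases iron from transferrin and ferritin. Many lysosomal genes carry a short promoter motif, known as the CLEAR element, that is recognised by TFEB and its relatives of the MiT family.

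RefSeq promoters of GRCm38.p6 were held for 34 of the 40 genes, each as 300 bases of which 250 precede the transcription start. The letters CACGTG, which read the same on both strands, were present in 11 of these 34 genes (32.4%), against 8.09% of all 27025 genes in the table. Counted by promoter, they were present in 28.9% of the members' 38 promoters and in 7.15% of all 32851. The longer form TCACGTGA, which is also its own reverse complement and contains CACGTG, was present in 5 of the 34 genes (14.7%), against 1.12% of all genes, and in 13.2% of the members' promoters, against 0.974% of all promoters. These 5 were Gla with 2 copies, Mcoln1, Atp6v1a, Atp6v0d1 and Atp6v0e. The promoters of the 4 genes with more than 1 CACGTG are printed here to show where the letters lie, 5′ to 3′ on the strand of the gene, with the matches in capitals. They lie at chrX:134600956-134601255 on the minus strand for Gla, chr8:3500269-3500568 on the plus strand for Mcoln1, chr8:13158911-13159210 on the plus strand for Lamp1 and chr4:117887280-117887579 on the minus strand for Atp6v0b.
Gla: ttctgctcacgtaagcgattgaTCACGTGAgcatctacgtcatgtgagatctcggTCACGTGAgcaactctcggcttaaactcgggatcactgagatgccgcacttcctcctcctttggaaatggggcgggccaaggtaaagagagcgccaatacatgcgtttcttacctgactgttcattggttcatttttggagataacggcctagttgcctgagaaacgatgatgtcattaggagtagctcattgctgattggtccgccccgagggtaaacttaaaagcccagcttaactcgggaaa
Mcoln1: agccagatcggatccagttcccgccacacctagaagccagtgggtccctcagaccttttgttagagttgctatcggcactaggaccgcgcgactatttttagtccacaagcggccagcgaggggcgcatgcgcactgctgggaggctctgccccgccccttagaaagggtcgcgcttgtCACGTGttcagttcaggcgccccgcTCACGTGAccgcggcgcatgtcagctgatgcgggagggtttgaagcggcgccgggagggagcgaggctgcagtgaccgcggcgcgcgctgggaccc
Lamp1: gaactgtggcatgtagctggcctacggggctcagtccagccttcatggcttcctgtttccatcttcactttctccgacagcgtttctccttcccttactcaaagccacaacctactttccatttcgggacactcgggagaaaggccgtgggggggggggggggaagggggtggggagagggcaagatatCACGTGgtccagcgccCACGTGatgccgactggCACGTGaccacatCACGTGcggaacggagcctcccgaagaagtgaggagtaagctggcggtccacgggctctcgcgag
Atp6v0b: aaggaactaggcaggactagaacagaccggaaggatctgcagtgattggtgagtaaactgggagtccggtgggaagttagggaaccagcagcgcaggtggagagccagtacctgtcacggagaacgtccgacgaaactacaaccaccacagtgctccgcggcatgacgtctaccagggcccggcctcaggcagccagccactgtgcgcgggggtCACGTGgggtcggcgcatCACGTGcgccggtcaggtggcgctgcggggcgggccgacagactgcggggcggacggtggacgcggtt
Lamp1 held 4 copies and the other 3 genes 2 copies each, and those of Gla were both of the longer form. By class, CACGTG was present in 3 of 5 V0 genes, 1 of 4 V1 genes, 4 of 11 glycosidases and sulfatases, 1 of 4 peptidases and related genes, 2 of 5 membrane protein genes, and in none of the 2 accessory or 3 sphingolipid genes with a promoter. Such matches describe letters and are not sites shown to be bound, by MiT factors or by others. The shares over all genes were not limited to genes expressed in aorta and were not matched for base content. The median log2 change in HFD against CD was 0.89 over the 11 genes that held the letters and 0.76 over the 23 that did not, and in HFD_IO against HFD it was 0.17 and 0.29.

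Values are the deposited FPKM, that is fragments per kilobase of gene scaled for depth, and per-library values are given in the order of the libraries' numbers. A change is a difference in log2(FPKM + 1), given with the standard error from limma (SE). A gene was called when its limma p, adjusted by Benjamini-Hochberg over all 13883 genes tested, was under 0.05. Recovered reads came to between 16660963 and 18308450 per library, and the member with the fewest reads, Arsb, still had 135 in its poorest library. All 40 genes passed the filter on low values. Within groups, HFD_IO_3 was the lowest library for 32 of the 40 genes, HFD_3 for 22 and CD_1 for 24. Such counts were not made over all genes tested. The FPKM sum over all genes in the table also differed between libraries, from 289697 in CD_3 to 437079 in HFD_3. The labels do not state how the 3 aortas of a group were raised or handled. A p-value therefore sets a difference between groups only against the spread between these libraries. That spread was estimated over all 3 groups and moderated over all genes tested. The aorta's own marker Acta2, the actin of contractile smooth muscle, was abundant in all 9 libraries, at 2521, 1863 and 3175 FPKM in HFD_IO, 5674, 5422 and 6237 FPKM in HFD and 4264, 4342 and 4492 FPKM in CD.

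Lysosomal genes rose as a block in HFD against CD, and a smaller share of the 40 rose in HFD_IO against HFD. In HFD against CD 34 of 40 genes rose and 1 fell, where 21.8% of all genes tested rose and 17.6% fell. The median change over the 40 genes was 0.83, against 0.06 over all genes tested. In HFD_IO against HFD 17 rose and 1 fell, where 14.1% of all genes rose and 14.5% fell, with medians of 0.29 and, over all genes, 0.00. Across the whole range, in HFD_IO against CD, 36 rose and none fell, where 17.5% of all genes rose and 15% fell. The 4 that passed in neither direction there were Gaa, Idua, Smpd1 and Scarb2, and by limma no member was lower there even at an unadjusted p under 0.05, nor called lower by voom on recovered reads (0 genes). On the TPM scale, which forces each library to the same sum, the median over all genes was -0.30 in HFD against CD and 0.14 in HFD_IO against HFD, and the members' medians were 0.47 and 0.47. All genes then split into 1018 higher and 4948 lower in HFD against CD (main scale 3030 and 2440), 2373 and 1160 in HFD_IO against HFD (1956 and 2013), and 1528 and 3800 in HFD_IO against CD (2427 and 2089), and of the members 24, 19 and 31 rose. The 10 whose rise in HFD against CD was not called on TPM were Atp6v0b, Atp6v0c, Atp6v0d1, Atp6v1c1, Atp6ap1, Man2b1, Neu1, Tpp1, Grn and Mcoln1. In HFD_IO against CD the 5 were Atp6v0a1, Atp6v0b, Atp6v0e, Atp6v1d and Mcoln1. After quantile normalization the rises of Atp6v0b, Atp6v0c, Atp6v0d1, Atp6ap1 and Grn in HFD against CD were not called. Without a filter on low values Atp6v0a1 and Mcoln1 were not called in HFD against CD, nor Atp6v1c1, Hexa, Naglu and Lamp1 in HFD_IO against HFD, nor Atp6v0e in HFD_IO against CD. With only the 2 groups compared in the model Hexa and Lamp1 were not called in HFD_IO against HFD, nor Atp6v0e in HFD_IO against CD.

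Read library by library, every HFD library stood above every CD library for 36 of 40 genes and below for 1, where 28.2% and 22.5% of all genes did so. Every HFD_IO library stood above every HFD library for 19 genes and below for 3, where 24.1% and 24.4% of all genes did so. Every HFD_IO library stood above every CD library for 37 genes and below for none, where 24.3% and 22.7% of all genes did so. The summed FPKM of the 40 genes was 6145, 6318 and 4721 in the HFD_IO libraries, 4449, 4237 and 3364 in the HFD libraries and 1609, 1722 and 1753 in the CD libraries. These 3 ranges did not overlap, and HFD_IO_3 and HFD_3 were the lowest of their groups. Prosaposin (Psap) alone made up 38.4% to 45.1% of that sum in HFD_IO, 34.1% to 44.7% in HFD and 24.6% to 27.8% in CD.

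**Figure D1:**
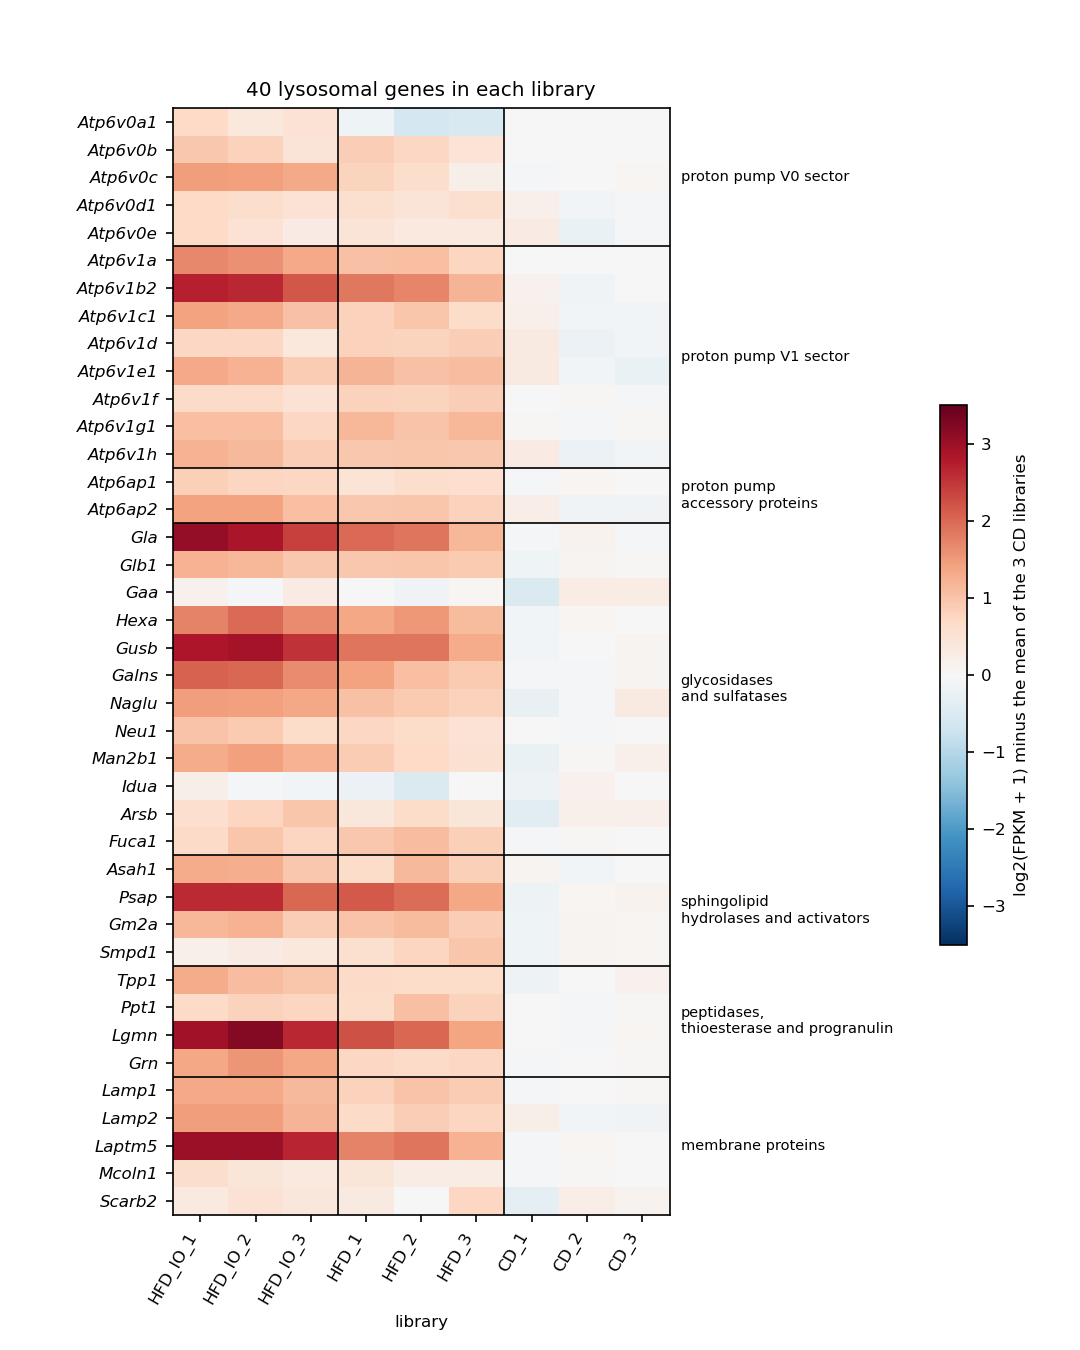
Heat map of the 40 genes (rows, by class) in the 9 libraries (columns, HFD_IO, HFD and CD from left to right), as log2(FPKM + 1) minus the mean of the 3 CD libraries. Nearly all rows are red in both high fat groups, deepest for Laptm5, Lgmn, Gla and Gusb in HFD_IO, while Atp6v0a1 is pale blue in HFD and Gaa and Idua stay near white.

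**Figure D2:**
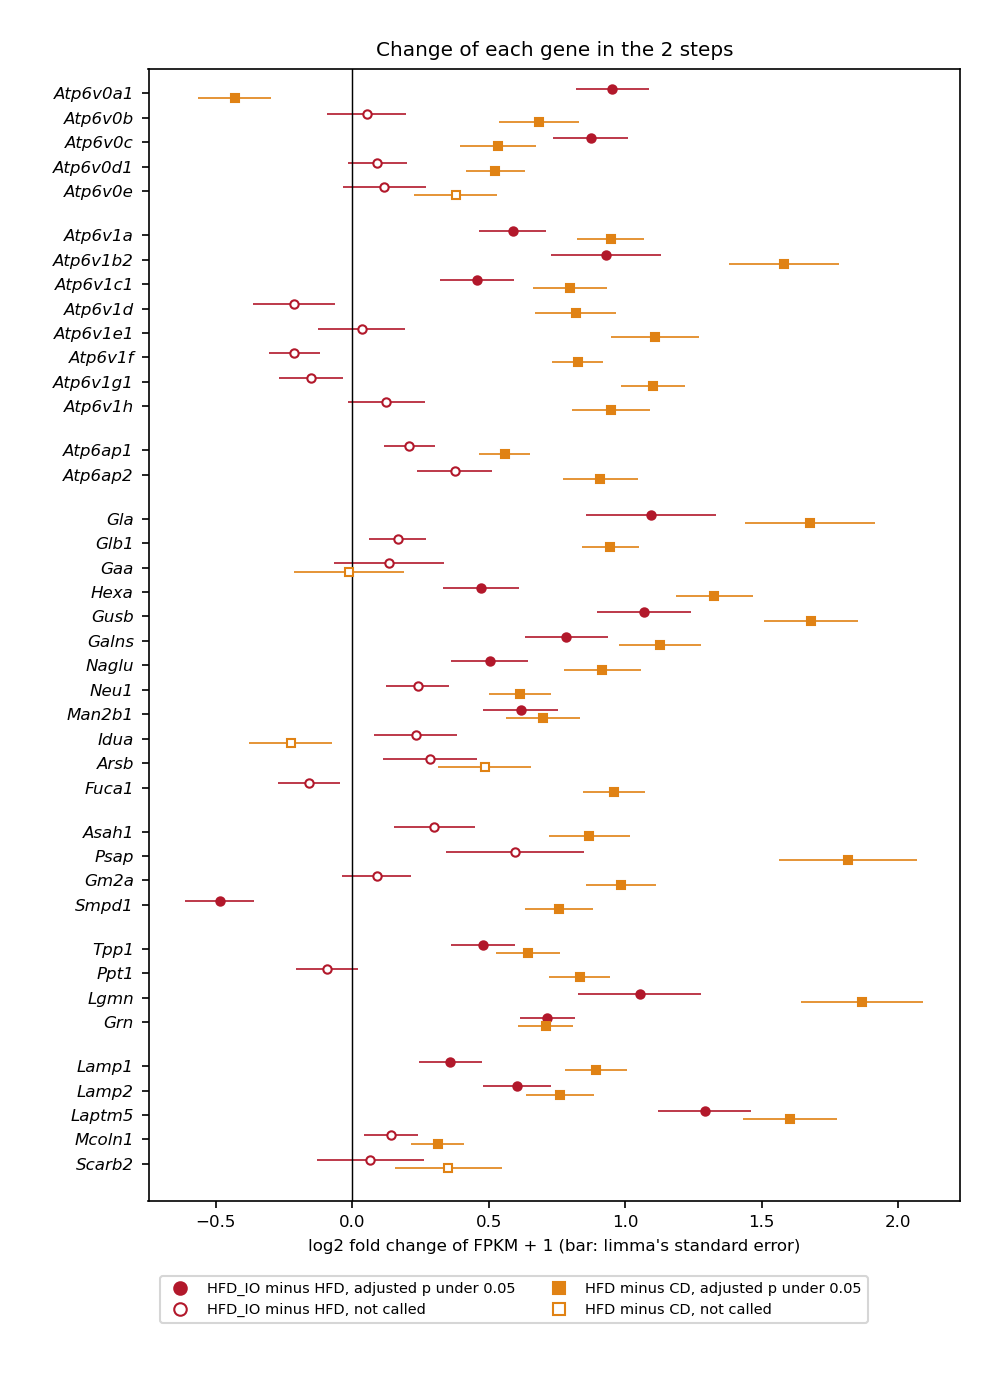
Log2 fold changes of FPKM + 1 for each gene in HFD_IO minus HFD (circles) and HFD minus CD (squares), with limma's standard error as bars and filled symbols for adjusted p under 0.05. Filled squares stand right of 0 for 34 genes and left of 0 for Atp6v0a1, and filled circles stand right of 0 for 17 genes and left of 0 for Smpd1.

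The V1 sector, which hydrolyses ATP and turns the rotor of the pump, rose as a whole in HFD against CD: all 8 genes were called, with a median of 0.95. Of the 8, 3 rose in HFD_IO against HFD, Atp6v1a, Atp6v1b2 and Atp6v1c1, with a median of 0.08 over the class. Atp6v1b2 (ENSMUSG00000006273, chromosome 8, 69088646 to 69113711, GRCm38), the widely expressed B subunit, had the largest change of the 15 pump members in HFD against CD. It was at 78.1, 73.6 and 52.5 FPKM in HFD_IO, 42.1, 38.2 and 26.1 FPKM in HFD and 12.2, 9.93 and 10.9 FPKM in CD. It rose by 1.58 (SE 0.20, adjusted p = 0.000992) in HFD against CD and by 0.93 (SE 0.20, adjusted p = 0.0108) in HFD_IO against HFD. Atp6v1a, the catalytic A subunit, was at 59.2, 56.1 and 45.7 FPKM in HFD_IO, 37.5, 37.7 and 30.7 FPKM in HFD and 17.6, 17.9 and 17.8 FPKM in CD. Its changes were 0.95 (SE 0.12, adjusted p = 0.00105) and 0.59 (SE 0.12, adjusted p = 0.00952) in the same 2 comparisons. For both genes the 3 groups were fully separated, in the order HFD_IO, HFD, CD. Atp6v1c1, the C subunit that clamps V1 onto V0, was at 24.01, 22.9 and 18.3 FPKM in HFD_IO, 15.4, 17.5 and 13.7 FPKM in HFD and 9.77, 7.90 and 7.86 FPKM in CD. It rose by 0.80 (SE 0.14, adjusted p = 0.00285) in HFD against CD, and by 0.46 (SE 0.14, adjusted p = 0.0352) in HFD_IO against HFD. That second call was lost without HFD_1 (0.45), HFD_3 (0.38), HFD_IO_1 (0.38) or HFD_IO_2 (0.42), at adjusted p = 0.0717 to 0.118, and after removal of the length trend (0.41).

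The other 5 V1 genes, of the stalks, the rotor and the regulatory H subunit, were raised in HFD and not further raised in HFD_IO. Atp6v1g1 (G subunit, stalk) was at 121, 119.8 and 96.3 FPKM in HFD_IO, 128, 114 and 130.3 FPKM in HFD and 58.6, 54.8 and 58.7 FPKM in CD, and its changes were 1.10 (SE 0.12, adjusted p = 0.000574) in HFD against CD and -0.15 (SE 0.12, adjusted p = 0.361) in HFD_IO against HFD. Atp6v1f (F subunit, rotor) was at 104, 105 and 94.1 FPKM in HFD_IO, 117, 114 and 121 FPKM in HFD and 65.8, 67.7 and 63.6 FPKM in CD, with changes of 0.83 (SE 0.09, adjusted p = 0.000691) and -0.21 (SE 0.09, adjusted p = 0.117). For these 2 genes HFD lay clear above CD, and HFD_IO lay level with HFD or a little under it. Atp6v1d (D subunit, rotor) was at 15.5, 15.4 and 12.04 FPKM in HFD_IO, 16.7, 16.2 and 17.05 FPKM in HFD and 11.4, 7.61 and 8.34 FPKM in CD, with changes of 0.82 (SE 0.15, adjusted p = 0.00364) and -0.21 (SE 0.15, adjusted p = 0.309). Its rise in HFD_IO against CD (0.61, SE 0.15, adjusted p = 0.0134) was not called without CD_2 (0.50), CD_3 (0.56) or HFD_IO_2 (0.55). Atp6v1e1 (E subunit, stalk) was at 41.3, 38.6 and 30.3 FPKM in HFD_IO, 37.9, 33.7 and 35.02 FPKM in HFD and 19.96, 14.9 and 13.5 FPKM in CD, with changes of 1.11 (SE 0.16, adjusted p = 0.00153) and 0.03 (SE 0.16, adjusted p = 0.891). All HFD_IO libraries of Atp6v1d and Atp6v1f lay below the HFD libraries, and those of Atp6v1e1 and Atp6v1g1 overlapped. Atp6v1h (H subunit) was at 12.7, 11.99 and 9.71 FPKM in HFD_IO, 10.4, 10.5 and 10.2 FPKM in HFD and 6.21, 4.13 and 4.55 FPKM in CD, with changes of 0.95 (SE 0.14, adjusted p = 0.00177) and 0.12 (SE 0.14, adjusted p = 0.539). Over all genes, changes also moved with gene length. Of 5 length classes, the shortest, up to 1735 bases, had a median of 0.29 in HFD against CD and -0.21 in HFD_IO against HFD. Atp6v1f and Atp6v1g1 are 1063 and 1135 bases long. After removal of the length trend their second changes were 0.07 and 0.13, and that of Atp6v1h was -0.04, none of them called. The part of gene length in the V1 pattern was not tested.

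The V0 sector carries protons through the membrane, and its 5 genes did not move alike. In HFD against CD 3 rose and 1 fell, with a median of 0.52, and in HFD_IO against HFD 2 rose, with a median of 0.12. All 5 were higher in HFD_IO than in CD by the test, with a median of 0.62. These medians moved with the scale: in HFD against CD the median was 0.14 on TPM, 0.16 after quantile normalization and 0.26 after removal of the length trend. In HFD_IO against HFD it was 0.35 after quantile normalization and 0.32 after removal of the length trend, and in HFD_IO against CD 0.39 on TPM. Atp6v0a1 (ENSMUSG00000019302, chromosome 11, 101009452 to 101063719), an a subunit that holds the proton half-channels, went against the block. It was at 39.1, 31.1 and 33.8 FPKM in HFD_IO, 21.2, 15.3 and 16.1 FPKM in HFD and 23.4, 23.7 and 24.1 FPKM in CD. In HFD against CD it fell (-0.43, SE 0.13, adjusted p = 0.0321), in HFD_IO against HFD it rose (0.95, SE 0.13, adjusted p = 0.0023), and in HFD_IO against CD it rose (0.52, SE 0.13, adjusted p = 0.0164). No library of 1 group overlapped those of another. The fall in HFD was not called without CD_2 (-0.43), CD_3 (-0.42), HFD_2 (-0.34) or HFD_3 (-0.38), at adjusted p = 0.0782 to 0.112, nor after removal of the length trend (-0.33). The rise in HFD_IO against HFD was called under all 17 alternatives, and that in HFD_IO against CD was not called without HFD_IO_1 (0.43, adjusted p = 0.0577) or on TPM (0.30).

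Atp6v0c, the proteolipid that forms most of the proton-carrying ring, was at 38.3, 37.4 and 34.8 FPKM in HFD_IO, 23.5, 20.7 and 15.6 FPKM in HFD and 12.6, 13.2 and 13.99 FPKM in CD. It rose by 0.53 (SE 0.14, adjusted p = 0.0155) in HFD against CD and by 0.87 (SE 0.14, adjusted p = 0.00334) in HFD_IO against HFD. The first of these was not called without HFD_2 (0.50, adjusted p = 0.0532), after quantile normalization (0.40, adjusted p = 0.063) or after removal of the length trend (0.42, adjusted p = 0.0518). Its low value in HFD_3 stood beside a high count of a pseudogene named after it, Atp6v0c-ps2 (chromosome 6, 37806086 to 37806550). The pseudogene took 335 recovered reads in HFD_3, which is 28.1% of the reads of gene and pseudogene together, and 8 to 27 reads, at most 1.90%, in each of the other 8 libraries. With those reads added, Atp6v0c was at 38.7, 37.8 and 35.2 FPKM in HFD_IO, 23.9, 20.96 and 21.7 FPKM in HFD and 12.7, 13.4 and 14.2 FPKM in CD. HFD_3 was then no longer the lowest of its group. On the summed reads the changes were 0.68 (SE 0.09, adjusted p = 0.00114) in HFD against CD and 0.72 (SE 0.09, adjusted p = 0.00157) in HFD_IO against HFD. Whether reads of the gene were assigned to the pseudogene was not tested.

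The remaining 3 V0 genes were not called in HFD_IO against HFD. Atp6v0b, another proteolipid of the ring, was at 104, 95.2 and 74.6 FPKM in HFD_IO, 98.7, 89.05 and 75.6 FPKM in HFD and 53.8, 54.5 and 53.5 FPKM in CD, with changes of 0.68 (SE 0.15, adjusted p = 0.00688) in HFD against CD and 0.05 (SE 0.15, adjusted p = 0.811) in HFD_IO against HFD. Atp6v0d1, the d subunit that couples ring and rotor, was at 88.3, 83.3 and 77.2 FPKM in HFD_IO, 79.2, 74.1 and 79.6 FPKM in HFD and 60.5, 50.2 and 50.9 FPKM in CD, with changes of 0.52 (SE 0.11, adjusted p = 0.006) and 0.09 (SE 0.11, adjusted p = 0.551). After removal of the length trend these were 0.26 (adjusted p = 0.0603), not called, and 0.32 (adjusted p = 0.0372), called, and after quantile normalization the first was 0.16 (adjusted p = 0.324). That of Atp6v0b was then 0.31 (adjusted p = 0.199). Atp6v0e, a small subunit, was at 60.8, 53.7 and 45.3 FPKM in HFD_IO, 50.9, 47.6 and 47.6 FPKM in HFD and 45.5, 31.3 and 36.04 FPKM in CD, with changes of 0.38 (SE 0.15, adjusted p = 0.0766) and 0.12 (SE 0.15, adjusted p = 0.593). For all 3 genes the HFD_IO and HFD libraries overlapped and the HFD libraries stood above the CD libraries. Atp6v0e reached the threshold in HFD against CD without CD_1 (0.52, adjusted p = 0.0158), and in HFD_IO against CD, where it rose by 0.50 (SE 0.15, adjusted p = 0.0341), it no longer passed without CD_2 (0.38), CD_3 (0.47), HFD_2 (0.50), HFD_IO_1 (0.40) or HFD_IO_2 (0.49). The accessory proteins are needed to assemble the pump. Atp6ap1 was at 110.3, 104 and 103 FPKM in HFD_IO, 85.98, 95.6 and 92.98 FPKM in HFD and 59.3, 64.7 and 61.3 FPKM in CD, and Atp6ap2, also known as the prorenin receptor, was at 55.5, 55.5 and 43.8 FPKM in HFD_IO, 40.3, 41.2 and 36.6 FPKM in HFD and 24.4, 18.9 and 18.6 FPKM in CD. Both rose in HFD against CD, by 0.56 (SE 0.09, adjusted p = 0.00264) for Atp6ap1 and 0.91 (SE 0.14, adjusted p = 0.00179) for Atp6ap2. Neither was called in HFD_IO against HFD (0.21 with SE 0.09 and adjusted p = 0.125, and 0.38 with SE 0.14 and adjusted p = 0.0699), although every HFD_IO library stood above every HFD library for both. Both were called there on TPM (0.37 for Atp6ap1 and 0.54 for Atp6ap2), after quantile normalization (0.48 and 0.55) and after removal of the length trend (0.31 and 0.52), at adjusted p = 0.00925 to 0.0446. Without CD_1 or HFD_IO_3, Atp6ap2 was also called (0.38 and 0.49, adjusted p = 0.0317 and 0.0401).

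**Figure D3:**
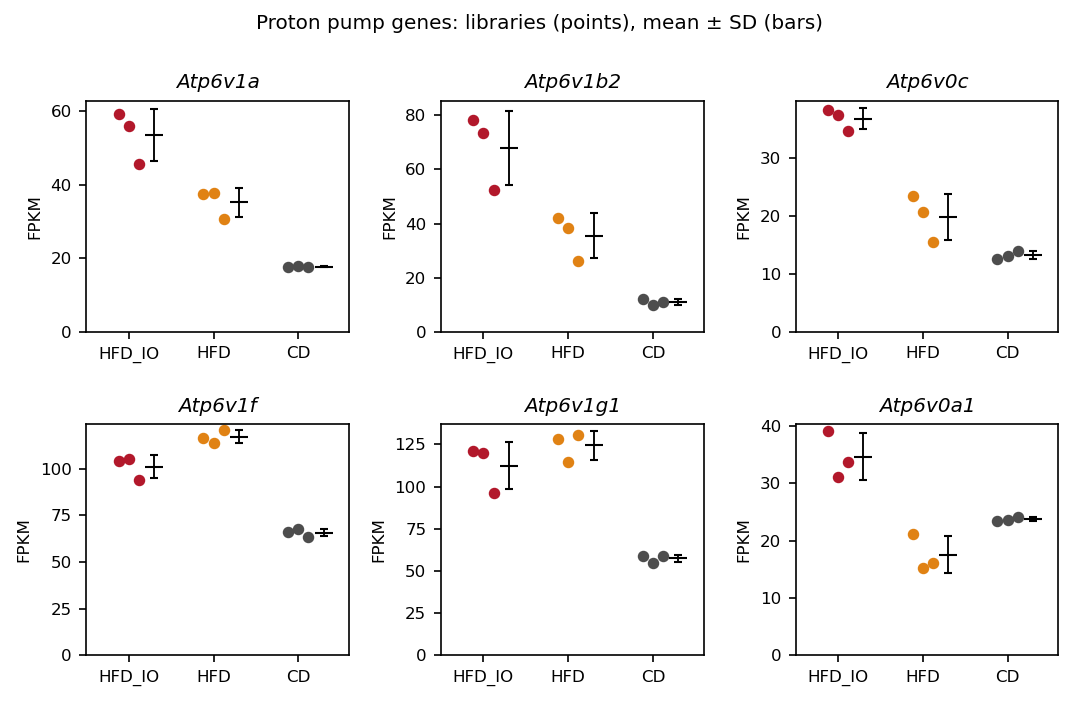
FPKM of 6 proton pump genes in the 9 libraries (points, HFD_IO, HFD and CD from left to right) with the mean ± SD of each group beside them (n = 3). Atp6v1a, Atp6v1b2 and Atp6v0c step up from CD to HFD_IO, and Atp6v0a1 is lowest in HFD. The HFD_IO and HFD libraries overlap for Atp6v1g1, whereas for Atp6v1f every HFD_IO library lies a little below every HFD library.

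Glycosidases and sulfatases remove sugars and sulfate from glycolipids, glycoproteins and glycosaminoglycans. Of the 12 genes, 9 rose in HFD against CD, with a median of 0.93, and 6 rose in HFD_IO against HFD, with a median of 0.38. The 2 with the largest changes were Gusb and Gla. Gusb (ENSMUSG00000025534, chromosome 5, 129989011 to 130003049), the beta-glucuronidase, was at 119, 127 and 96.5 FPKM in HFD_IO, 60.99, 61.3 and 40.97 FPKM in HFD and 14.8, 16.2 and 17.03 FPKM in CD. It rose by 1.68 (SE 0.17, adjusted p = 0.00052) in HFD against CD and by 1.07 (SE 0.17, adjusted p = 0.00344) in HFD_IO against HFD. Gla (ENSMUSG00000031266, chromosome X, 134588149 to 134601125), the alpha-galactosidase that is missing in Fabry disease, was at 32.02, 27.4 and 19.4 FPKM in HFD_IO, 14.6, 13.5 and 7.69 FPKM in HFD and 2.73, 3.28 and 2.76 FPKM in CD. Its changes were 1.68 (SE 0.24, adjusted p = 0.00145) and 1.10 (SE 0.24, adjusted p = 0.0108), and its HFD_IO mean of 26.3 ± 6.39 FPKM stood against 11.9 ± 3.70 in HFD and 2.92 ± 0.310 in CD (SD, n = 3 each). For both genes no 2 groups overlapped, and each was called in both comparisons under all alternatives tried. Galns, a sulfatase of keratan sulfate, was at 22.5, 21.6 and 16.8 FPKM in HFD_IO, 13.9, 10.6 and 9.66 FPKM in HFD and 4.41, 4.43 and 5.02 FPKM in CD, with changes of 1.13 (SE 0.15, adjusted p = 0.00117) and 0.78 (SE 0.15, adjusted p = 0.00695). Man2b1, the alpha-mannosidase of glycoprotein breakdown, was at 46.3, 51.1 and 44.2 FPKM in HFD_IO, 34.6, 30.3 and 26.8 FPKM in HFD and 15.4, 19.03 and 20.9 FPKM in CD, with changes of 0.70 (SE 0.14, adjusted p = 0.00488) and 0.62 (SE 0.14, adjusted p = 0.0116). These 2 also rose in both comparisons with no overlap between groups. Hexa, the alpha chain of beta-hexosaminidase that is missing in Tay-Sachs disease, was the most abundant of the class, at 295, 353 and 280.2 FPKM in HFD_IO, 227, 252 and 191 FPKM in HFD and 82.4, 91.9 and 89.5 FPKM in CD. It rose by 1.33 (SE 0.14, adjusted p = 0.000566) and by 0.47 (SE 0.14, adjusted p = 0.0349). Naglu, which acts on heparan sulfate, was at 46.9, 46.4 and 43.7 FPKM in HFD_IO, 34.7, 31.6 and 29.6 FPKM in HFD and 13.5, 15.8 and 20.5 FPKM in CD, with changes of 0.92 (SE 0.14, adjusted p = 0.00193) and 0.50 (SE 0.14, adjusted p = 0.0279).

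Without 1 library, the second call of Hexa was lost 6 times and that of Naglu 5 times. For Hexa these were CD_2 (0.47), CD_3 (0.47), HFD_1 (0.49), HFD_3 (0.36), HFD_IO_1 (0.50) and HFD_IO_2 (0.37), at adjusted p = 0.0533 to 0.114. For Naglu they were HFD_2 (0.50), HFD_3 (0.45), HFD_IO_1 (0.49), HFD_IO_2 (0.49) and HFD_IO_3 (0.53), at adjusted p = 0.0546 to 0.0913. Their HFD_IO libraries nevertheless stood above all HFD libraries.

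A second set of glycosidases rose in HFD against CD and was not called in HFD_IO against HFD. Fuca1, the alpha-fucosidase, was at 47.5, 59.5 and 50.9 FPKM in HFD_IO, 57.9, 64.4 and 53.95 FPKM in HFD and 28.3, 30.8 and 29.96 FPKM in CD, with changes of 0.96 (SE 0.11, adjusted p = 0.000784) and -0.16 (SE 0.11, adjusted p = 0.319). Glb1, the beta-galactosidase, was at 23.3, 22.8 and 19.4 FPKM in HFD_IO, 19.3, 19.6 and 18.99 FPKM in HFD and 8.46, 10.3 and 9.93 FPKM in CD, with changes of 0.95 (SE 0.10, adjusted p = 0.00064) and 0.17 (SE 0.10, adjusted p = 0.259). Neu1, a sialidase, was at 18.9, 17.9 and 14.4 FPKM in HFD_IO, 15.3, 14.4 and 13.1 FPKM in HFD and 9.10, 8.61 and 9.06 FPKM in CD, with changes of 0.62 (SE 0.11, adjusted p = 0.00385) and 0.24 (SE 0.11, adjusted p = 0.144). For all 3 the HFD libraries lay above the CD libraries and overlapped the HFD_IO libraries, and Neu1 was called in HFD_IO against HFD without HFD_IO_3 (0.35, adjusted p = 0.0458). The other 3 genes of the class passed in neither of these comparisons. Arsb, a sulfatase of dermatan and chondroitin sulfate and the least abundant of the 40, was at 3.23, 3.79 and 4.62 FPKM in HFD_IO, 2.75, 3.43 and 2.79 FPKM in HFD and 1.22, 2.23 and 2.21 FPKM in CD. Its changes were 0.48 (SE 0.17, adjusted p = 0.0504) and 0.29 (SE 0.17, adjusted p = 0.238), and in HFD_IO against CD it rose (0.77, SE 0.17, adjusted p = 0.00836). It was called in HFD against CD with a pseudocount of 0.1 (0.68), after quantile normalization (0.55), after removal of the length trend (0.56) and by voom (0.71), at adjusted p = 0.0256 to 0.0491. Gaa, which degrades glycogen, was at 42.9, 37.2 and 47.2 FPKM in HFD_IO, 38.99, 35.6 and 40.7 FPKM in HFD and 26.8, 46.6 and 46.4 FPKM in CD, with changes of -0.01 (SE 0.20, adjusted p = 0.966) and 0.13 (SE 0.20, adjusted p = 0.647). Idua, which acts on heparan and dermatan sulfate, was at 10.9, 8.87 and 8.75 FPKM in HFD_IO, 8.13, 6.36 and 9.53 FPKM in HFD and 8.21, 10.6 and 9.60 FPKM in CD, with changes of -0.23 (SE 0.15, adjusted p = 0.263) and 0.23 (SE 0.15, adjusted p = 0.277). The groups of Gaa and Idua overlapped in every comparison, which does not show that their levels were equal.

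Among the 4 genes that degrade sphingolipids, all 4 rose in HFD against CD, with a median of 0.93, whereas in HFD_IO against HFD limma called none higher (1 at an unadjusted p under 0.05, and 0 called by voom) and 1 fell. Psap (ENSMUSG00000004207, chromosome 10, 60277627 to 60302597), the precursor of the saposins that present lipids to hydrolases, was the most abundant of the 40. It was at 2769, 2777 and 1813 FPKM in HFD_IO, 1988, 1765 and 1148 FPKM in HFD and 396, 474 and 487 FPKM in CD. It rose by 1.82 (SE 0.25, adjusted p = 0.00133) in HFD against CD, and its change in HFD_IO against HFD of 0.60 (SE 0.25, adjusted p = 0.106) did not pass. After quantile normalization it was called there (0.85, adjusted p = 0.0392), as was Asah1 (0.51, adjusted p = 0.0322). HFD_IO_3 lay among the HFD libraries, and the other HFD_IO libraries lay above all of them. Smpd1 (ENSMUSG00000037049, chromosome 7, 105554360 to 105558389), the acid sphingomyelinase that turns sphingomyelin into ceramide, was at 25.9, 28 and 29.7 FPKM in HFD_IO, 34.2, 39.01 and 45.8 FPKM in HFD and 20.6, 24.5 and 23.8 FPKM in CD. It rose in HFD against CD (0.76, SE 0.13, adjusted p = 0.00251) and fell in HFD_IO against HFD (-0.49, SE 0.13, adjusted p = 0.0206), and in HFD_IO against CD its change was 0.27 (SE 0.13, adjusted p = 0.132). All HFD libraries lay above all HFD_IO and all CD libraries. The fall was not called without HFD_2 (-0.49), HFD_3 (-0.38), HFD_IO_1 (-0.44) or HFD_IO_2 (-0.49), at adjusted p = 0.0525 to 0.0699, nor on TPM (-0.34, adjusted p = 0.0588). Asah1, the acid ceramidase, was at 63.8, 63.7 and 49.8 FPKM in HFD_IO, 40.1, 57 and 46.8 FPKM in HFD and 27.2, 23.7 and 25.8 FPKM in CD, with changes of 0.87 (SE 0.15, adjusted p = 0.00294) and 0.30 (SE 0.15, adjusted p = 0.16). Gm2a, the activator with which hexosaminidase degrades a ganglioside, was at 56.1, 58.6 and 45.6 FPKM in HFD_IO, 49.96, 54.4 and 45.7 FPKM in HFD and 21.99, 26.4 and 25.99 FPKM in CD, with changes of 0.99 (SE 0.13, adjusted p = 0.00105) and 0.09 (SE 0.13, adjusted p = 0.631). For both the HFD_IO and HFD libraries overlapped above all CD libraries.

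Peptidases, the thioesterase and progranulin rose in all 4 cases in HFD against CD, with a median of 0.77, and in 3 of 4 in HFD_IO against HFD, with a median of 0.60. Lgmn (ENSMUSG00000021190, chromosome 12, 102394084 to 102439813), the asparaginyl endopeptidase that also cleaves and matures other lysosomal proteases, had the largest change of the 40 in HFD against CD. It was at 474, 572 and 382 FPKM in HFD_IO, 289.6, 249 and 159.8 FPKM in HFD and 61.8, 58.01 and 63.6 FPKM in CD. It rose by 1.87 (SE 0.22, adjusted p = 0.000844) and, in HFD_IO against HFD, by 1.05 (SE 0.22, adjusted p = 0.0101), and its HFD_IO mean was 7.78-fold its CD mean. Grn, progranulin, whose granulin fragments act in the lysosome, was at 230, 264 and 230.4 FPKM in HFD_IO, 149, 143 and 147 FPKM in HFD and 86.01, 89.9 and 91.7 FPKM in CD. Its changes of 0.71 (SE 0.10, adjusted p = 0.00147) in HFD against CD and 0.72 (SE 0.10, adjusted p = 0.0023) in HFD_IO against HFD were of like size on this scale. The first was not called on TPM (0.32, adjusted p = 0.0614) or after quantile normalization (0.24, adjusted p = 0.111), where the second was 0.88 and 1.03. Tpp1, which removes tripeptides from protein ends, was at 53.9, 45.9 and 42.6 FPKM in HFD_IO, 34.2, 33.3 and 33.4 FPKM in HFD and 18.8, 21.3 and 23.6 FPKM in CD, with changes of 0.65 (SE 0.12, adjusted p = 0.00358) and 0.48 (SE 0.12, adjusted p = 0.017). The groups of these 3 genes did not overlap, although the second call of Tpp1 was lost without HFD_2 (0.47), HFD_3 (0.47) or HFD_IO_1 (0.39), at adjusted p = 0.0505 to 0.0577. Ppt1, the thioesterase that strips fatty acids from proteins, was at 39.3, 43.8 and 41.97 FPKM in HFD_IO, 39.2, 51.8 and 43.4 FPKM in HFD and 24.5, 23.8 and 25.4 FPKM in CD, with changes of 0.83 (SE 0.11, adjusted p = 0.00123) and -0.09 (SE 0.11, adjusted p = 0.569). Its HFD_IO and HFD libraries overlapped. Ppt1 overlaps the abundant gene Cap1 on the opposite strand (a mean of 129 FPKM over the 9 libraries against 37.0 for Ppt1), and since the use of strand in counting is not given in the sources used here, their reads may not be fully told apart. By position, 15 of the 40 members overlap another gene, and for 6 of them that gene had a mean of at least 1 FPKM. Only Cap1 had a higher mean than the member it overlaps, but reads of the other pairs may likewise not be fully told apart.

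Of the 5 membrane proteins 4 rose in HFD against CD, with a median of 0.76, and 3 rose in HFD_IO against HFD, with a median of 0.36. Laptm5 (ENSMUSG00000028581, chromosome 4, 130913125 to 130936141), a lysosomal protein of blood-derived cells, had the largest change of the 40 in HFD_IO against HFD. It was at 209, 215 and 169 FPKM in HFD_IO, 86.9, 95.3 and 60.9 FPKM in HFD and 24.5, 26.5 and 25.5 FPKM in CD. It rose by 1.60 (SE 0.17, adjusted p = 0.000566) in HFD against CD and by 1.29 (SE 0.17, adjusted p = 0.00185) in HFD_IO against HFD. Lamp1 and Lamp2 are the heavily glycosylated proteins that line the inner face of the membrane, and Lamp2 also serves autophagy. Lamp2 was at 53.6, 53.5 and 44.4 FPKM in HFD_IO, 30.7, 35.3 and 32.5 FPKM in HFD and 22.1, 17.6 and 17.4 FPKM in CD, with changes of 0.76 (SE 0.12, adjusted p = 0.00244) and 0.60 (SE 0.12, adjusted p = 0.00911), the second of which was not called after removal of the length trend (0.44, adjusted p = 0.0593). Lamp1 was at 449, 449 and 395 FPKM in HFD_IO, 317, 357 and 333 FPKM in HFD and 171, 182 and 187 FPKM in CD, with changes of 0.89 (SE 0.11, adjusted p = 0.000997) and 0.36 (SE 0.11, adjusted p = 0.0433). The groups of these 3 genes did not overlap. The second call of Lamp1 was nonetheless lost without any 1 of CD_2 (0.36), CD_3 (0.36), HFD_1 (0.32), HFD_2 (0.41), HFD_3 (0.35), HFD_IO_1 (0.33) and HFD_IO_2 (0.33), at adjusted p = 0.0698 to 0.125, and under voom on recovered reads (adjusted p = 0.0551).

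Mcoln1, a cation channel through which calcium and iron leave the lysosome, and Scarb2, the receptor that carries glucocerebrosidase to it, were not called in HFD_IO against HFD. Mcoln1 was at 7.34, 6.29 and 5.92 FPKM in HFD_IO, 6.29, 5.56 and 5.53 FPKM in HFD and 4.33, 4.65 and 4.41 FPKM in CD. It rose by 0.31 (SE 0.10, adjusted p = 0.0327) in HFD against CD, was not called in HFD_IO against HFD (0.14, SE 0.10, adjusted p = 0.3), and rose in HFD_IO against CD (0.46, SE 0.10, adjusted p = 0.00707). Its HFD libraries stood above the CD libraries and overlapped the HFD_IO libraries. The first call was lost without any 1 of CD_1 (0.30), CD_2 (0.34), CD_3 (0.31), HFD_1 (0.26), HFD_2 (0.34) and HFD_3 (0.34), at adjusted p = 0.0523 to 0.0947, and the direction turned on TPM (-0.02). Scarb2 was at 53.2, 60 and 54.9 FPKM in HFD_IO, 51.8, 42.4 and 69.4 FPKM in HFD and 32.8, 48.8 and 45.1 FPKM in CD, with changes of 0.35 (SE 0.20, adjusted p = 0.181) and 0.07 (SE 0.20, adjusted p = 0.824). Its HFD libraries were widely scattered and overlapped both other groups, and on TPM the change in HFD against CD was -0.04.

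**Figure D4:**
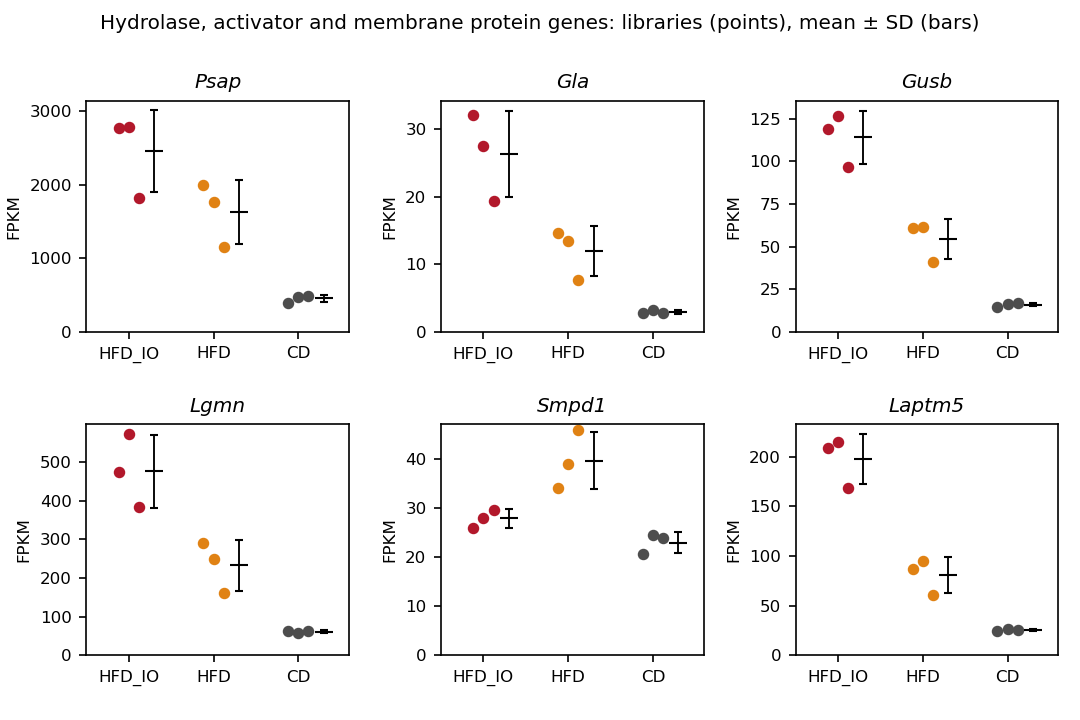
FPKM of 4 hydrolase or activator genes with the acid sphingomyelinase gene Smpd1 and the membrane protein gene Laptm5 among the 6 panels, by library (points, HFD_IO, HFD and CD from left to right) with the mean ± SD of each group (n = 3). The means of Psap, Gla, Gusb, Lgmn and Laptm5 are highest in HFD_IO, whereas that of Smpd1 is highest in HFD. For Psap, HFD_IO_3 lies among the HFD libraries.

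The change in HFD_IO against HFD differed from that in HFD against CD, by the contrast of the 2 in the same model, for 12 of the 40 genes. It was higher for 1 and lower for 11, where 14.2% and 17% of all genes were called higher and lower. The HFD libraries enter both changes with opposite signs, so the 2 are not independent. The gene with the higher second change was Atp6v0a1, by 1.38 (SE 0.23, adjusted p = 0.00458). The largest negative differences were those of Atp6v1g1 (-1.25, SE 0.20, adjusted p = 0.00429), Smpd1 (-1.24, SE 0.22, adjusted p = 0.00506) and Fuca1 (-1.12, SE 0.20, adjusted p = 0.00519). The other 8 were Atp6v1d, Atp6v1e1, Atp6v1f, Atp6v1h, Glb1, Hexa, Gm2a and Ppt1, at -1.08 to -0.78. Thus 5 of the 8 V1 genes, and no gene among the accessory or membrane proteins, were in this set. After quantile normalization none of these 5 V1 genes was called (adjusted p = 0.0518 to 0.241). On TPM only Atp6v1g1 of the 5 was called, and after removal of the length trend Atp6v1f was not called (-0.46, adjusted p = 0.0646). Over all genes 1972 were called higher and 2362 lower, against 986 and 1420 without HFD_2 and 926 and 1213 without HFD_3. On TPM the split was 3961 higher and 885 lower. Among the members the count of 11 was 5 without HFD_2, 2 on TPM and 3 after quantile normalization, and only Atp6v0a1 and Smpd1 were called under every alternative tried. Calls were lost without single libraries for Atp6v1d (HFD_2 at -1.07 and HFD_3 at -0.9987), Atp6v1e1 (HFD_1 at -0.98, HFD_2 at -1.15 and HFD_3 at -1.09), Glb1 (HFD_2 at -0.76) and Gm2a (HFD_2 at -0.77). The same held for Atp6v1h (CD_2 at -0.72, CD_3 at -0.78, HFD_1 at -0.82, HFD_2 at -0.80, HFD_3 at -0.84 and HFD_IO_3 at -0.72) and for Hexa (CD_3 at -0.87, HFD_1 at -0.82, HFD_2 at -0.67, HFD_IO_1 at -0.82 and HFD_IO_3 at -0.79).

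Further genes of the same pathway were described by list. Their counts, and those of the cell type markers below, stand beside the shares over all genes tested. In HFD against CD 21.8% of all genes rose and 17.6% fell, and in HFD_IO against HFD 14.1% rose and 14.5% fell. Of 10 other pump genes, mostly isoforms used in particular tissues, 5 passed the filter on low values, and 2 of these rose in HFD against CD, with a median of 0.21. Atp6v0d2, the d isoform known from osteoclasts and macrophages, had the largest change of any pump gene. It was at 122, 94.5 and 54.9 FPKM in HFD_IO, 44.9, 41.2 and 18.5 FPKM in HFD and 3.06, 2.46 and 2.24 FPKM in CD, with changes of 3.23 (SE 0.36, adjusted p = 0.000646) and 1.37 (SE 0.36, adjusted p = 0.0214). It made up 41.6% to 58.0% of the summed FPKM of Atp6v0d1 and Atp6v0d2 in HFD_IO, 18.8% to 36.2% in HFD and 4.22% to 4.82% in CD. The osteoclast a subunit Tcirg1 was at 44.5, 40.9 and 33.5 FPKM in HFD_IO, 30.2, 23.1 and 16.1 FPKM in HFD and 15.3, 12.8 and 14.1 FPKM in CD and rose in both comparisons, by 0.64 (SE 0.20, adjusted p = 0.0342) and 0.79 (SE 0.20, adjusted p = 0.0214). Atp6v0e2, an isoform of the small subunit, was at 4.13, 5.01 and 5.996 FPKM in HFD_IO, 11.3, 6.83 and 10.3 FPKM in HFD and 8.17, 9.29 and 8.95 FPKM in CD and fell in HFD_IO against HFD (-0.78, SE 0.18, adjusted p = 0.0127). Of the a and d subunit genes named above, Tcirg1 and Atp6v0d2 were called higher in both comparisons. Atp6v0d1 was called higher in HFD against CD only, and Atp6v0a1 was called lower there and higher in HFD_IO against HFD.

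Of 27 other hydrolase genes tested, 18 rose in HFD against CD and 7 in HFD_IO against HFD, with medians of 0.60 and 0.24. Limma called none lower in either comparison (0 and 2 at an unadjusted p under 0.05), and voom called 0. Lipa, the acid lipase that frees cholesterol from lipoprotein esters, was at 253, 217 and 154 FPKM in HFD_IO, 79.1, 74.6 and 47.6 FPKM in HFD and 21.9, 21.6 and 22.96 FPKM in CD. It rose by 1.52 (SE 0.22, adjusted p = 0.00157) and by 1.62 (SE 0.22, adjusted p = 0.00205), and was the gene of this list that changed most in both. In HFD against CD the next largest were Dnase2a, which degrades DNA of engulfed cells (1.39), the cholesterol carrier Npc2 (1.27) and the phospholipase-like Plbd1 (1.20). Among those that rose in HFD_IO against HFD were also Galc, a galactosylceramidase (1.06), and Dnase2a (0.71). Of 20 other membrane protein genes 10 rose, 1 fell and 9 were not called in HFD against CD, with a median of 0.29, and 7 rose and 2 fell in HFD_IO against HFD. The tetraspanin gene Cd63 rose most in HFD against CD (1.14), and Tpcn2, a cation channel, fell (-0.72). In HFD_IO against HFD the chloride exchanger Clcn7 (0.89), the cholesterol exporter Npc1 (0.86) and Tpcn2 (0.85) rose, and Laptm4b fell (-0.75). Tpcn2, at 10.1, 11.1 and 9.60 FPKM in HFD_IO, 7.24, 4.96 and 3.91 FPKM in HFD and 8.59, 9.56 and 9.76 FPKM in CD, was lowest in HFD, as was Atp6v0a1.

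Most soluble hydrolases reach the lysosome through a mannose 6-phosphate tag. Of 6 genes of that route 3 rose in HFD against CD, M6pr, Nagpa and Gnptg, by 0.80, 0.76 and 0.52. A further 2 rose in HFD_IO against HFD, the large receptor Igf2r by 0.96 (SE 0.17, adjusted p = 0.00539) and Gnptab, part of the enzyme that makes the tag, by 0.93 (SE 0.11, adjusted p = 0.00132). Igf2r was at 19.7, 18.4 and 20.2 FPKM in HFD_IO, 10.1, 9.60 and 8.76 FPKM in HFD and 6.36, 10.1 and 11.3 FPKM in CD, so that its HFD and CD libraries overlapped and its HFD_IO libraries stood above both. Gnptab was at 20.99, 19.1 and 17.3 FPKM in HFD_IO, 9.64, 10.5 and 8.67 FPKM in HFD and 7.51, 8.90 and 8.85 FPKM in CD. Of the 4 MiT factor genes only Tfeb rose in HFD against CD (0.38, SE 0.12, adjusted p = 0.0292), and it was not called in HFD_IO against HFD (-0.17, SE 0.12, adjusted p = 0.308). The other 3 rose in HFD_IO against HFD: Mitf by 0.76 (SE 0.11, adjusted p = 0.0023), Tfec by 0.70 (SE 0.18, adjusted p = 0.0186) and Tfe3 by 0.51 (SE 0.11, adjusted p = 0.0118). Mitf was at 6.41, 7.62 and 5.93 FPKM in HFD_IO, 3.44, 3.49 and 3.54 FPKM in HFD and 2.74, 2.70 and 3.30 FPKM in CD, and its HFD_IO libraries were all above those of the other groups. These are RNA levels, and the activity of these factors, which is set largely by where the protein lies in the cell, was not measured.

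Markers of cell types moved with the same comparisons. Of 12 macrophage markers 11 rose in HFD against CD and 10 in HFD_IO against HFD, with medians of 1.78 and 0.84, and their summed FPKM was 5325 to 9113 in HFD_IO, 3270 to 5372 in HFD and 677 to 763 in CD. Cd68 was at 419.9, 382 and 338 FPKM in HFD_IO, 149, 134 and 99.9 FPKM in HFD and 22.9, 21.3 and 24.2 FPKM in CD. Adgre1 was at 53.2, 71.9 and 55.9 FPKM in HFD_IO, 17.8, 23.95 and 22.03 FPKM in HFD and 7.17, 8.46 and 8.57 FPKM in CD, and Csf1r, the receptor for a macrophage growth factor, at 52.7, 74.7 and 63.2 FPKM in HFD_IO, 43.4, 28.98 and 35.5 FPKM in HFD and 21.05, 24.8 and 25.2 FPKM in CD. The lowest sums of these markers in the 2 high fat groups were those of HFD_IO_3 and HFD_3, which were also the lowest for 32 and 22 of the 40 lysosomal genes. Single markers differed in this: Adgre1 was lowest in HFD_IO_1 and HFD_1, and Csf1r in HFD_IO_1 and HFD_2. The highest sum in HFD_IO was that of HFD_IO_2, whereas HFD_IO_1 was the highest library for 23 of the 40 lysosomal genes. Of 8 smooth muscle markers limma called none in HFD against CD (3 at an unadjusted p under 0.05, and 0 called by voom) and 5 fell in HFD_IO against HFD, with sums of 2501 to 4266 FPKM in HFD_IO, 6940 to 8086 in HFD and 5398 to 6042 in CD. Myh11 was at 309.9, 239.8 and 447 FPKM in HFD_IO, 591, 506 and 677 FPKM in HFD and 369.7, 626 and 609.7 FPKM in CD. Of 7 endothelial markers 6 fell in HFD against CD and 2 rose in HFD_IO against HFD, with sums of 264 to 314 FPKM in HFD_IO, 132 to 255 in HFD and 414 to 586 in CD. Pecam1 was at 120.2, 124 and 121 FPKM in HFD_IO, 117, 101 and 63.7 FPKM in HFD and 216, 296 and 281 FPKM in CD. Of 6 white adipocyte markers 3 rose in HFD against CD and 2 fell in HFD_IO against HFD, with sums of 119 to 429 FPKM in HFD_IO, 425 to 1014 in HFD and 138 to 314 in CD. Skeletal muscle markers summed to 2.67 to 11.9 FPKM in HFD_IO, 5.501 to 79.9 in HFD and 3.99 to 8.96 in CD. No marker of these lists was at 0 in every library. The part of these cell types in the lysosomal results was not tested, and in bulk RNA fewer cells of a type and less RNA per cell cannot be told apart.

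**Figure D5:**
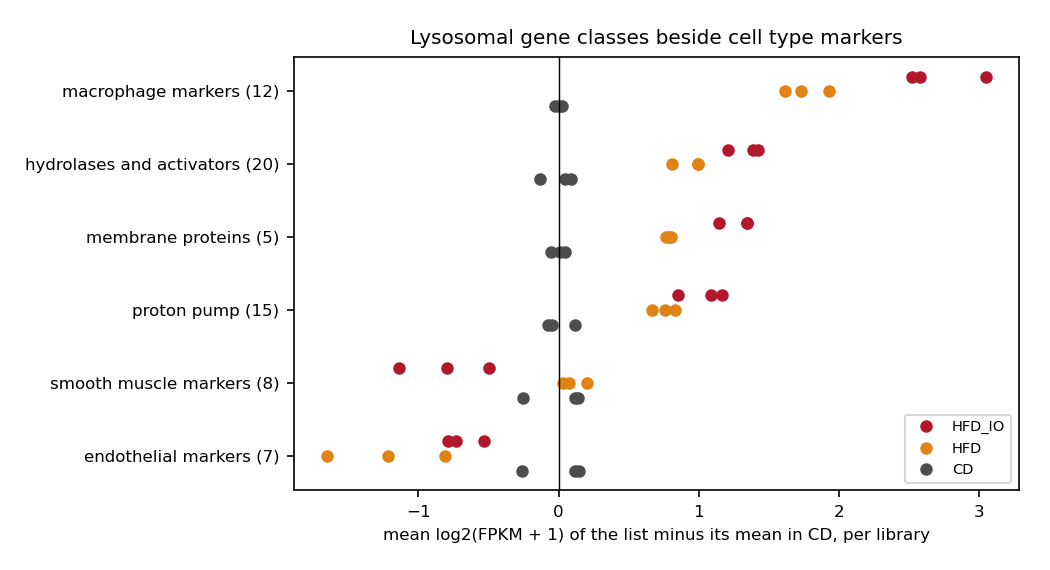
Mean log2(FPKM + 1) of each gene list minus its mean in CD, 1 point per library, with HFD_IO above HFD above CD within each row. Macrophage markers spread furthest to the right, the 3 lysosomal classes follow with HFD_IO right of HFD right of CD, and smooth muscle markers lie left of the other groups in HFD_IO.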

How the data were processed

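Messenger RNA was measured by RNA sequencing in 9 mouse aortas, 3 per group, from column-purified RNA and NEBNext libraries, per the labels' protocols. The authors deposited FPKM per gene with gene lengths. The submitters' processing notes name HISAT2 and hg38, a human build, whereas 54409 of 54532 gene identifiers are in mouse GENCODE M21 and 98.33% of those have its GRCm38 position. Neither the counting tool nor its use of strand is given in the sources used here. Columns carry a group name, so a library was assigned to its group only.

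The product of FPKM and length was a whole multiple of 1 read's worth for 100% of values above 0, within 0.05 of a read, and the reads so recovered sum to 16660963 to 18308450 per library. FPKM carries a median-of-ratios scaling and not plain totals. Genes with FPKM of at least 1 in at least 3 libraries (13883) were fitted as log2(FPKM + 1), which understates changes of low genes, with limma 3.58.1 in R 4.3.3 (mean-variance trend, all 9 libraries in 1 model), and p-values were adjusted by Benjamini-Hochberg at 0.05. Alternatives were a pseudocount of 0.1, no filter, a minimum FPKM of 5, TPM, quantile normalization, removal of each library's trend on length, voom on recovered reads, only the 2 groups compared, and omission of each library. The calculation was tested on simulated reads with known changes. These had the same spread setting for every gene and no trend on length, so the test checks the code and not the fit to these libraries.

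The members and gene lists were chosen with earlier results of these data known, so lists are described by counts and medians without a test. All 40 members are named. Of other lists up to 4 genes with the largest change among those called are named, and fixed cell type markers. A gene that this rule selects is not reported here. The addition of Atp6v0c-ps2 reads to Atp6v0c was chosen after seeing the data, and Cap1 was named after its values were seen.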

Additional observations from a re-analysis of the deposited data

How the results depend on the processing

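Of 35 members called in HFD against CD, 24 kept their call under all alternatives run for them (17, but 16 for Arsb and for the difference between the changes), as did 11 of 18 in HFD_IO against HFD, 31 of 36 in HFD_IO against CD and 2 of 12 for the difference between the changes. Counts of members that rose stayed within 1.5 times throughout, at 24 to 35 in HFD against CD, 12 to 21 in HFD_IO against HFD and 31 to 36 in HFD_IO against CD. The cause was not tested for any change given here.

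The 1 member that fell in HFD against CD became 0 without a filter, 0 after removal of the length trend and 2 on TPM (Atp6v0a1 and Idua), and was 0 to 1 with single libraries left out. The 1 that fell in HFD_IO against HFD was 0 on TPM and 0 to 1 with single libraries left out. For the difference between the changes, 2 members were higher on TPM and 2 after quantile normalization, and 2 and 3 were lower, with 5 to 13 lower when 1 library was left out.

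Over all genes, TPM gave 1018 higher and 4948 lower in HFD against CD, 1160 lower in HFD_IO against HFD, and 1528 higher and 3800 lower in HFD_IO against CD. A minimum FPKM of 5, which tests fewer genes, gave 1332 lower in HFD against CD, 1288 higher in HFD_IO against HFD and 1367 lower in HFD_IO against CD. With single libraries left out, HFD_IO against HFD gave 1182 to 2437 higher (lowest without HFD_3 and 1218 without HFD_IO_2) and 1093 to 2507 lower, and HFD_IO against CD 1260 to 2463 lower.

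Medians in HFD against CD were 0.46 for the pump, 0.52 for the hydrolases and 0.47 for all members on TPM, 0.64 for the hydrolases and 0.58 for all members after quantile normalization, and 0.77 for the hydrolases after removal of the length trend. For HFD_IO against HFD they were 0.55 for the hydrolases and 0.47 for all members on TPM, 0.35, 0.58 and 0.50 for pump, hydrolases and all members after quantile normalization, and 0.31 for the pump after removal of the length trend, and all members ranged over 0.27 to 0.38 with 1 library left out. In HFD_IO against CD they were 0.72, 0.94 and 0.94 on TPM, and the hydrolases ranged over 1.09 to 1.24 with 1 library left out.

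Some signs turned. In HFD against CD these were Atp6v0e (-0.0064 against 0.38 on FPKM), Mcoln1 (-0.018 against 0.31 on FPKM, a called rise) and Scarb2 (-0.036 against 0.35 on FPKM) on TPM, and Gaa, which ranged over -0.27 to 0.12 with 1 library left out. Removal of the length trend turned, in HFD_IO against HFD, Atp6v1f (0.071), Atp6v1g1 (0.13), Atp6v1h (-0.043) and Scarb2 (-0.0064). Quantile normalization turned Atp6v1f (0.092), Atp6v1g1 (0.16), Fuca1 (0.049) and Ppt1 (0.086), and TPM turned Atp6v1g1 (0.0056) and Ppt1 (0.063). With 1 library left out, Atp6v0b ranged over -0.050 to 0.19, Atp6v1e1 over -0.054 to 0.16, Ppt1 over -0.18 to 0.014 and Scarb2 over -0.10 to 0.25. In HFD_IO against CD, TPM turned Gaa (-0.11) and Idua (-0.22), Idua was -0.052 after quantile normalization and -0.00061 after removal of the length trend, and with 1 library left out Gaa ranged over -0.14 to 0.25 and Idua over -0.088 to 0.083.

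No paired analysis was possible because the labels number the aortas without a number shared between groups. With 3 libraries per group, leaving 1 out leaves 2 in that group, and the spread is pooled over all groups. Depth was not limiting for the members, whose lowest recovered count in a library was 135.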

Other observations

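Of the pump isoforms known from kidney and other specialised tissues, Atp6v0a4, Atp6v1b1, Atp6v1c2, Atp6v1e2 and Atp6v1g3 did not reach the filter on low values. Atp6v0a4 was at 0.315, 0.288 and 0.478 FPKM in HFD_IO, 0.414, 0.277 and 0.198 FPKM in HFD and 0.164, 0.217 and 0.221 FPKM in CD, and its highest library in HFD_IO lay above all others. Atp6v1b1, the B isoform of kidney and inner ear, was above 0 in 3 of 9 libraries and reached 0.0388 FPKM.

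Of 6 fibroblast markers 2 rose in HFD against CD and 2 fell in HFD_IO against HFD, with summed FPKM of 1037 to 1150 in HFD_IO, 1239 to 1439 in HFD and 801 to 1017 in CD. Of 6 T and B cell markers tested limma called none in HFD against CD or HFD_IO against HFD (1 and 2 at an unadjusted p under 0.05), nor did voom (0). The sums over all 7 markers of that list were 5.14 to 15.1 FPKM in HFD_IO, 11.5 to 69.6 in HFD and 6.95 to 24.9 in CD. Neutrophil markers summed to 23.4 to 82.9 FPKM in HFD_IO, 16.9 to 21.2 in HFD and 6.72 to 37.5 in CD, with 2 of 5 tested and 0 called by limma or voom in these 2 comparisons (0 at an unadjusted p under 0.05).

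Cap1, the opposite-strand neighbour of Ppt1, was at 138, 159 and 150.3 FPKM in HFD_IO, 146, 165 and 152 FPKM in HFD and 68.9, 94.8 and 84.8 FPKM in CD. Like Ppt1, it was higher in every high fat library than in every CD library, and the part of shared reads in this was not tested.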
